A study of Mus musculus and Homo sapiens with 22 samples.

Results

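Processed pseudogenes are copies of messenger RNAs that were reverse transcribed and inserted back into the genome, mostly by the machinery of LINE-1 retrotransposons. They lack the introns of the gene they came from and usually its promoter, so a copy is transcribed only where its new position provides a start. Genes with abundant messenger RNA in germ cells and the early embryo, such as those for ribosomal proteins, translation factors and glycolytic enzymes, have left many copies. A copy that still resembles its parent gene also poses a practical problem, because short reads can match both.

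The pseudogenes described here were chosen from 6 RNA-seq libraries of mouse embryonic stem cells (mESCs), 3 of wild-type (WT) cells and 3 of cells with a knockout (KO) of Mettl3, the catalytic subunit of the enzyme that writes N6-methyladenosine (m6A) on messenger RNA. Of the 56196 genes in the count files, 10235 were annotated as processed or transcribed processed pseudogenes, and 112 of these had a mean of at least 50 counts over the 6 libraries. Copies of ribosomal protein genes (Rpl and Rps) were left out, 9 by their symbol and 14 more by their sequence. The remaining 89 pseudogenes, 73 processed and 16 transcribed processed, are the expressed processed pseudogenes of this report. The mean count over all 6 libraries thus decided which genes entered.

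Both lines were taken from an earlier publication and cultured with serum and LIF. Each group is a single line, so a difference between the lines and an effect of the Mettl3 knockout cannot be told apart. The 6 libraries held between 22746733 and 27254245 reads counted in genes. The paper describes poly(A) selection for the miCLIP2 input, and its RNA-seq methods do not state how that RNA was selected. Mettl3 itself (chr14:52294841-52305128, GRCm38) had 560, 698 and 612 counts in WT cells and 462, 669 and 457 in KO cells, which overlap. Scaled to library size (CPM), the WT libraries lay between 26.4 and 28.9 and the KO libraries between 16.9 and 22.6, which do not, and its log2 fold change was -0.50 (SE 0.14). The adjusted p from edgeR (quasi-likelihood) was 0.0134, and 0.00281 with the replicate number as a block. The counts cover the whole gene and do not show which part of it was removed. All 8 mESC marker genes were above 10 CPM in every library, with a sum of 4309 to 4613 CPM in WT and 3110 to 3180 CPM in KO. All 8 markers of fibroblasts, the usual feeder cells of such lines, were below 10 CPM in every library, with a sum of 2.93 to 4.58 CPM in WT and 6.83 to 7.90 CPM in KO, and none was at 0 in every library. The part of the marker differences in the results below was not tested.

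The sequence of each pseudogene was set beside the closest transcript of a protein-coding gene, which is called its parent here. A parent at 80% identity or more over at least 100 bases was found for 86 of the 89, with a median identity of 98.2%. For 31 pseudogenes the identity was at least 99%, and 4 were identical to their parent over the aligned part (Gm13736 to Srp9, Ptges3-ps to Ptges3, Gm8186 to Snrpg and Tpt1-ps3 to Tpt1). The symbol of 10 pseudogenes names the parent directly, as in Pcna-ps2. The following 30-base stretches show what separates such a copy from its parent. They are the aligned stretches with the most differences, and capitals mark the bases that differ. The first pair is shown because a single base in 465 distinguishes the copy. The others are examples, chosen after their values were seen, of copies that rose (BC002163, AC133509.1 and Tdgf1-ps1) and that fell (Gm6166, Pcna-ps2 and Gm7658) in KO. Positions are given on GRCm38, and the sequences were read from the RefSeq copy of that assembly.
Atp6v0c-ps2 (chr6:37806181-37806210, + strand): tggcacagccaagagCggcactggcatcgc
Atp6v0c (chr17:24164837-24164866, - strand): tggcacagccaagagTggcactggcatcgc
BC002163 (chr16:42955708-42955737, + strand): ctaCaagaacgccgctcggtgccacgcGtt
Ndufs5 (chr4:123715973-123716002, - strand): ctaTaagaacgccgctcggtgccacgcAtt
AC133509.1 (chr19:17926665-17926694, + strand): cTcgtagattcTggcaagtccacTTcaacc
Eef1a1 (chr9:78480583-78480612, - strand): cAcgtagattcCggcaagtccacCAcaacc
Tdgf1-ps1 (chr16:3730944-3730973, + strand): cAggactcTgtgtcaaacgccgtctgtgaT
Tdgf1 (chr9:110940756-110940785, - strand): cGggactcCgtgtcaaacgccgtctgtgaC
Gm6166 (chr9:57484136-57484165, + strand): cacagtgaagacgacCgtgttctcttgtaa
Fabp5 (chr3:10015065-10015094, + strand): cacagtgaagacgacTgtgttctcttgtaa
Pcna-ps2 (chr19:9283507-9283536, + strand): tcacgtctccttggtGcagcttactctgcg
Pcna (chr2:132252879-132252908, - strand): tcacgtctccttggtAcagcttactctgcg
Gm7658 (chr1:21512535-21512564, - strand): tAagactgctctacgaggcgTtTgtggatt
Eif3m (chr2:105012861-105012890, - strand): tCagactgctctacgaggcgCtCgtggatt

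The reads were 84 bases long. A read within the annotated exons of a pseudogene can therefore be told from its parent by sequence only where its 84-base window occurs nowhere else. The median pseudogene had such distinct windows over 69.0% of its length. All windows were distinct in 14 pseudogenes, under 50% were in 37, and none was in 4. Reads aligned at more than 1 place were listed on a separate line of the count files, 13.9 to 15.2% of all entries, and were not counted in genes. The 4 pseudogenes without a distinct window still had counts, and where those reads lay was not examined. Of the 89, 74 had a single exon, and the exon sequence was between 111 and 3220 bases long with a median of 1102. They lay on 20 chromosomes. Another gene on the same strand overlapped 16 of them, and a gene on the opposite strand overlapped 16.

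The pseudogenes were expressed at low levels. Together they took 0.0555, 0.0650 and 0.0578% of gene counts in the WT libraries and 0.0593, 0.0632 and 0.0614% in the KO libraries. These shares overlap, and their means, 0.0594 ± 0.00498% in WT and 0.0613 ± 0.00191% in KO (SD, n = 3), were not told apart by a two-sided exact permutation test (p = 0.6, the smallest possible with 3 against 3 being 0.1). Without AC133509.1, which had the most KO counts of all called pseudogenes, the difference of KO minus WT was -0.00478 percentage points (exact permutation p = 0.2). Without WT replicate 1 the difference was -9e-05 percentage points. The mean count per pseudogene ran from 50.8 to 1151 with a median of 105. Per kilobase of exon, the mean over the 6 libraries ran from 0.79 to 49.7 CPM with a median of 4.66. Highest per kilobase was Snrpert at 49.7 CPM, a copy of Snrpe, which encodes a core protein of spliceosomal snRNPs, followed by 2210409E12Rik at 43.6 CPM and 2810025M15Rik at 32.7 CPM. These levels are sums over the cells of a culture, in which fewer expressing cells and less RNA per cell cannot be told apart.

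Just above the limit of 50 counts stood CT010433.1 (mean count 50.8), Gm3222 (51.3), a copy of the glycolytic gene Gapdh, and Gm11868 (51.8). Just below it stood AC127331.2 (48.7), 4930526A20Rik (48.0) and Hspd1-ps3 (47.8). Hspd1-ps3, a copy of the mitochondrial chaperonin gene, had 24, 28 and 42 counts in WT cells and 67, 59 and 67 in KO cells.

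In KO cells, 14 expressed pseudogenes rose and 17 fell. The call required a Benjamini-Hochberg adjusted p no higher than 0.01 over all 15731 tested genes, from edgeR (quasi-likelihood). These 31 of 89 (34.8%) compare with 29.7% of all tested genes, where 17.1% rose and 12.6% fell, and with 32.3% of the tested genes that also reached 50 counts on average. The share of pseudogenes called was near that of all genes, but 22 of the 31 had a mean under 50 counts in one group. Those 22 entered the set only through the other group and had to differ between the groups. Among the 61 pseudogenes with a mean of at least 50 counts in each group, 9 were called, against 30.3% of the genes with such means. The libraries of both groups did not overlap for 58 pseudogenes (65.2%) and for 56.1% of all tested genes. The median log2 fold change was -0.32 (quartiles -0.70 and 0.12) over the pseudogenes and -0.02 over all tested genes. The lines also differed elsewhere: the tested genes of the Y chromosome summed to 71 to 189 counts per WT library and to 6037 to 7066 per KO library, and over the 829 tested genes of chromosome 8 the median log2 difference was -0.44. Their part in the calls was not tested. The number called was 20 without WT replicate 1 and 19 without KO replicate 1. Leaving out WT replicate 1 or KO replicate 1 left 9 that fell, and leaving out KO replicate 2 or KO replicate 3 left 11. Scaling by library size only, which moved the median of all tested genes to 0.08, gave 14 that rose and 10 that fell.

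Large changes were more frequent among the pseudogenes than among all tested genes, but the choice by mean count bears on this, as described after the counts. A change of at least 2-fold was called in 27 pseudogenes (30.3%) and in 15.5% of all tested genes. An 8-fold or larger change was called in 14 of the 89 pseudogenes (15.7%), 8 higher and 6 lower in KO. Among all tested genes the share was 2.01% (1.58% higher, 0.426% lower), among tested genes that reached 50 counts on average 0.927% (0.704% higher, 0.224% lower), among protein-coding genes above that limit 0.767% and among long noncoding RNA genes above it 1.02%. All 14 had a mean under 50 counts in the group where they were low, so they entered the set only through the other group and had to differ between the groups. Of the 61 pseudogenes with a mean of at least 50 counts in each group, 9 were called, 1 higher and 8 lower, where 30.3% of the 11357 genes with such means were called (15.8% higher, 14.4% lower) and 0.0969% at 8-fold or more.

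**Figure D1:**
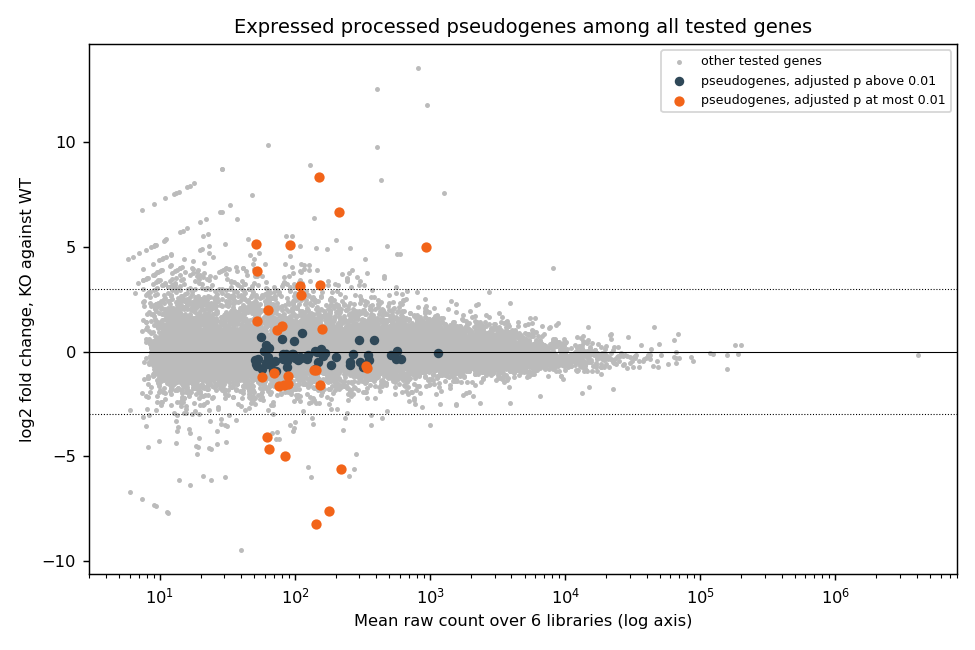
Each point is a tested gene, with its mean raw count over the 6 libraries (log axis) against its log2 fold change in KO against WT. Expressed processed pseudogenes are drawn larger, in orange where the adjusted p was at most 0.01 and in dark blue otherwise, and dotted lines mark an 8-fold change. 8 pseudogenes lie above the upper dotted line and 6 below the lower one.

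Atp6v0c-ps2 (chr6:37806086-37806550) had the largest increase. Its parent, Atp6v0c, encodes the proteolipid subunit of the membrane part of the vacuolar proton pump. The copy had 1, 1 and 0 counts in WT cells and 295, 390 and 215 in KO cells, so almost no reads were assigned to it in WT. Within its exon, only reads over the single base that differs can be told from Atp6v0c by sequence. Where its reads lay, and whether the lines have the same base there in both genes, was not examined. Over the summed counts of 2 and 900, the ratio of the scaled counts was 377 (exact 95% interval 104 to 3121, which covers counting error only). Atp6v0c fell over the same libraries, from 1002, 1025 and 997 counts to 675, 899 and 560 (log2 fold change -0.78, SE 0.15, adjusted p = 0.00241). The copy contributed at most 0.0997% of the pair's counts in WT and 27.7 to 30.4% in KO. The pair summed to a log2 change of -0.27.

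The other copies that rose at least 8-fold in KO included copies of genes of mitochondria, translation, RNA processing and metabolism. Gm6969 (chr12:24638669-24639010) is a copy of Cox7a2l, which encodes an assembly factor of respiratory supercomplexes, and had 5, 3 and 2 counts in WT cells and 410, 490 and 355 in KO cells. Its log2 fold change was 6.67 (SE 0.31, adjusted p = 7.06e-07). Cox7a2l did not pass the test (-0.13, SE 0.12, adjusted p = 0.418). BC002163 (chr16:42955631-42955949), a copy of the complex I subunit gene Ndufs5, had 13, 18 and 25 counts in WT cells and 206, 196 and 198 in KO cells (log2 fold change 3.16, SE 0.29, adjusted p = 3.15e-05). Ndufs5 had 218, 242 and 225 counts in WT cells and 121, 114 and 123 in KO cells, a log2 fold change of -1.19 (SE 0.18, adjusted p = 0.000588). BC002163 lies inside Zbtb20 on the same strand, whose counts overlapped between the groups. The copy held 5.63 to 10.0% of this pair's counts in WT and 61.7 to 63.2% in KO. Copy and parent together changed by 0.12 on the log2 scale.

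AC133509.1 (chr19:17926623-17928009) had the most counts among the 14. It is a copy of Eef1a1, the elongation factor that brings aminoacyl-tRNA to the ribosome. Its counts were 62, 46 and 33 in WT and 1622, 2034 and 1758 in KO, and the groups lay far apart (log2 fold change 5.00, SE 0.20, adjusted p = 3.37e-07). Eef1a1, with 140718 to 220319 counts per library, did not pass the test (-0.10, SE 0.16, adjusted p = 0.618). The copy made up 0.0214 to 0.0340% of the pair's counts in WT and 0.869 to 0.921% in KO. Of its 84-base windows, 85.4% occurred nowhere else, so most of its sequence can be told from Eef1a1 and its other copies. Gm13456 and Gm6548, also closest to Eef1a1, had log2 fold changes of 0.12 and 0.05 and did not pass the test (adjusted p = 0.634 and 0.853).

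Nudc-ps1 (chr8:29286431-29286981) had 4, 5 and 4 counts in WT cells and 170, 171 and 201 in KO cells, a log2 fold change of 5.10 (SE 0.30, adjusted p = 3e-06). The tested genes of its chromosome had a median of -0.44. Its parent Nudc, a cochaperone that acts with the dynein motor, fell by 0.78 on the log2 scale (SE 0.15, adjusted p = 0.00184). Gm9825 (chr6:7982541-7983383), a copy of Rnps1, which encodes a protein deposited at exon junctions, had 22, 28 and 27 counts in WT cells and 246, 287 and 315 in KO cells (log2 fold change 3.20, SE 0.22, adjusted p = 7.81e-06). Rnps1 fell by 0.90 on the log2 scale (SE 0.10, adjusted p = 8.18e-05). Gm13443 (chr2:35340409-35340963), a copy of the glyoxalase gene Glo1, had 8, 5 and 4 counts in WT cells and 97, 104 and 95 in KO cells, a log2 fold change of 3.84 (SE 0.33, adjusted p = 2.43e-05). Glo1 had a log2 fold change of -0.45 (SE 0.14, adjusted p = 0.0252, or 0.00092 with the replicate block). Gm11868 (chr4:18844202-18845679), a copy of the reductase gene Cyb5r4, had 1, 4 and 2 counts in WT cells and 86, 101 and 117 in KO cells (log2 fold change 5.13, SE 0.39, adjusted p = 1.24e-05), while Cyb5r4 fell by 0.53 on the log2 scale (SE 0.11, adjusted p = 0.00396). In each of these 4 copies the lowest KO library was above the highest WT library.

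Tdgf1-ps1 (chr16:3730510-3731022) was the next highest. Tdgf1 encodes Cripto, a co-receptor of Nodal signalling and a marker of embryonic stem cells. The copy had 24, 21 and 30 counts in WT cells and 181, 187 and 220 in KO cells, a log2 fold change of 2.7 (SE 0.27, adjusted p = 5.21e-05). Tdgf1 moved the other way, from 18003, 20032 and 23184 counts in WT to 5679, 5623 and 7356 in KO (log2 fold change -1.98, SE 0.18, adjusted p = 2.67e-05). No library of one group reached the range of the other in either gene. Tdgf1-ps1 was under 50 counts in every WT library, so it entered the set only through KO and had to differ between the groups. The copy held 0.105 to 0.133% of the pair's counts in WT and 2.90 to 3.22% in KO, and 68.8% of its windows were distinct. Zfp42-ps1, a copy of the pluripotency gene Zfp42 (Rex1), had 149, 231 and 268 counts in WT cells and 331, 381 and 440 in KO cells. Its log2 fold change of 0.57 (SE 0.22) did not pass the test (adjusted p = 0.0522, but 0.00357 with the replicate block), and neither did that of Zfp42 (0.19, SE 0.13, adjusted p = 0.244).

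**Figure D2:**
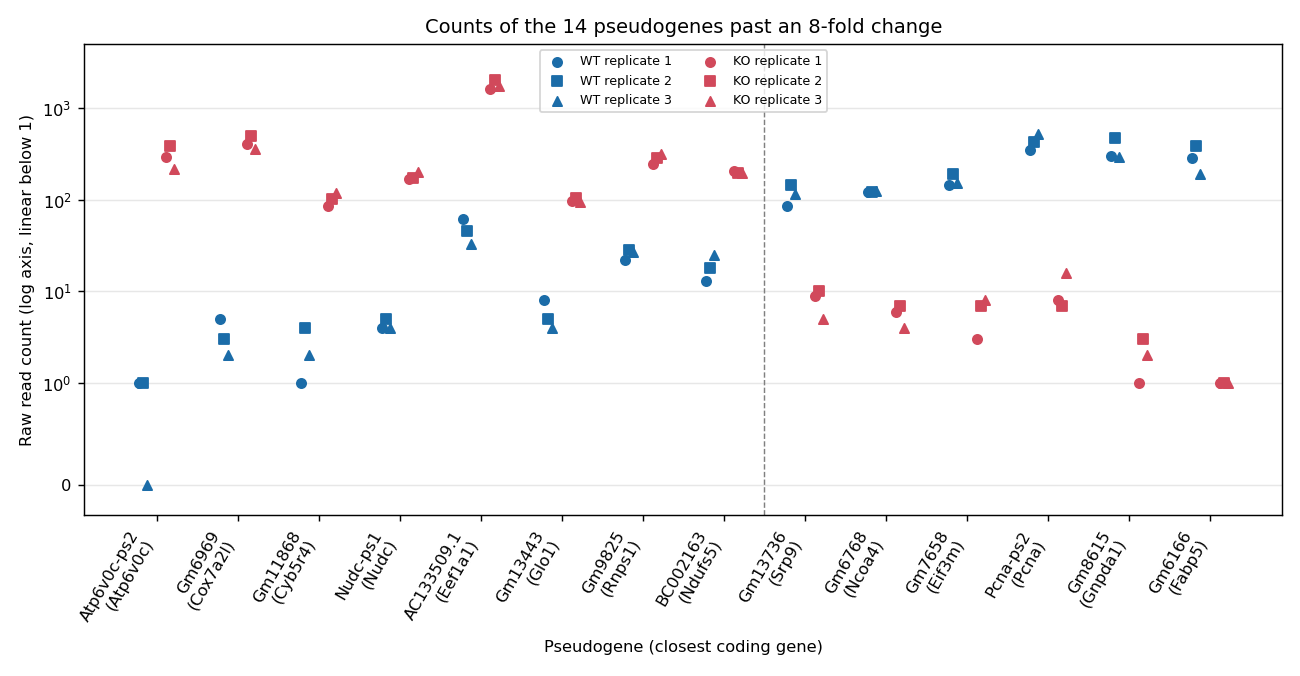
Raw counts of the 14 pseudogenes with an 8-fold or larger change, on an axis that is logarithmic above 1 and linear below, with the closest coding gene in brackets. WT libraries are blue and KO libraries red, with a marker for each replicate, and the dashed line separates the 8 that were higher in KO from the 6 that were lower. In each of the 14 the WT and KO libraries do not overlap, and Atp6v0c-ps2 and Gm6166 have at most 1 count per library in their low group.

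Among the 6 pseudogenes that fell at least 8-fold, Gm6166 (chr9:57483963-57484371) fell most. It is a copy of Fabp5, which encodes a fatty acid binding protein. Its counts were 288, 383 and 190 in WT and 1, 1 and 1 in KO, with summed counts of 861 and 3 and a ratio of WT to KO of 342 (exact 95% interval 117 to 1663, counting error only). Fabp5 had 395, 540 and 286 counts in WT cells and 686, 742 and 555 in KO cells (log2 fold change 0.46, SE 0.18, adjusted p = 0.0511, or 0.00375 with the replicate block). In WT the copy held 39.9 to 42.2% of the pair's counts, and in KO at most 0.18%. A processed pseudogene on the same strand, Gm18103, overlaps it and had at most 3 counts in any library.

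Gm8615 (chr5:149155108-149156209), annotated as transcribed and closest to Gnpda1, the gene of a glucosamine-6-phosphate deaminase, had 302, 473 and 296 counts in WT cells and 1, 3 and 2 in KO cells. Its ratio of WT to KO was 213 (exact 95% interval 97.5 to 581, counting error only). Gnpda1 rose (log2 fold change 0.66, SE 0.12, adjusted p = 0.00179). Gm8615 lies within the annotated span of Hmgb1 on the same strand. Hmgb1 had 3098, 3830 and 4160 counts in WT cells and 3072, 3584 and 3185 in KO cells, which overlap. Its scaled levels, 145.8 to 196.6 CPM in WT and 117.7 to 122.3 CPM in KO, do not. Its log2 fold change was -0.44 (SE 0.13, edgeR adjusted p = 0.0192, or 0.00301 with the replicate block). Pcna-ps2 (chr19:9283380-9284160), a copy of the gene of the sliding clamp of DNA replication, had 350, 422 and 515 counts in WT cells and 8, 7 and 16 in KO cells (log2 fold change -5.62, SE 0.32, adjusted p = 2.72e-06). Pcna had a log2 fold change of -0.40 (SE 0.13, adjusted p = 0.0241, or 0.00198 with the replicate block), so both fitted changes were negative but of very different size.

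Gm7658 (chr1:21511933-21513056) had 146, 193 and 151 counts in WT cells and 3, 7 and 8 in KO cells, a log2 fold change of -4.99 (SE 0.32, adjusted p = 4.35e-06). Its parent Eif3m, which encodes a subunit of translation initiation factor eIF3, also fell, by 0.50 on the log2 scale (SE 0.10, adjusted p = 0.00253). Gm7658 lies inside Kcnq5, a potassium channel gene on the same strand, which had 0, 1 and 0 counts in WT cells and 11, 20 and 23 in KO cells and so was high where the pseudogene was low. Gm6768 (chr12:119260978-119262855), a copy of Ncoa4, the receptor for autophagy of ferritin, had 120, 122 and 125 counts in WT cells and 6, 7 and 4 in KO cells (log2 fold change -4.67, SE 0.31, adjusted p = 6.6e-06). Ncoa4 rose by 0.48 on the log2 scale (SE 0.12, adjusted p = 0.00871). Only 9.36% of the windows of Gm6768 were distinct. Gm13736 (chr2:87526145-87526397) had 85, 146 and 116 counts in WT cells and 9, 10 and 5 in KO cells (log2 fold change -4.08, SE 0.33, adjusted p = 1.59e-05), whereas Srp9, a subunit gene of the signal recognition particle, rose by 0.80 (SE 0.13, adjusted p = 0.000849). No window of Gm13736 is distinct, since its sequence is that of Srp9 over its whole length. Within its annotated exon, reads of Gm13736 and Srp9 cannot be told apart by sequence. Its counts came from reads aligned at a single place, and where these reads lay was not examined.

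The 14 pseudogenes with an 8-fold or larger change had further features that the counts did not define. All had a single exon, all were aligned with the parent over at least 97.7% of their transcript, and the identity to the parent was 97.3% or more. Most of the 89 were alike in this: 74 had a single exon, 70 were aligned over at least 90%, and 62 had an identity of at least 95%. The 14 lay on 10 chromosomes. Distinct windows covered between 0 and 85.4% of them, with 8 of the 14 among the 37 pseudogenes under 50% and 6 among the 52 at 50% or more. Calls of any size numbered 13 among the 37 and 18 among the 52.

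**Figure D3:**
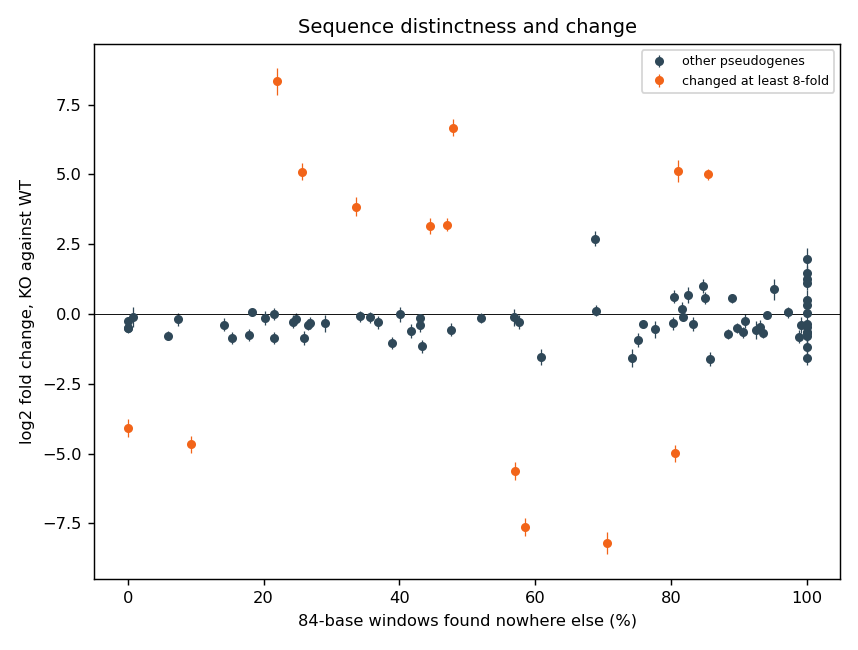
Share of 84-base windows found nowhere else in the genome or in spliced transcripts (%) against the log2 fold change in KO against WT, for the 89 pseudogenes. Points are fitted values, bars are SE, and orange marks the 14 changed at least 8-fold, which lie between 0 and 85.4% on the horizontal axis.

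Parent genes were compared next, to ask whether a copy moved with the gene it came from. Of the 79 pairs in which the parent was tested, 49 had fitted changes of the same sign (62.0%) and 30 of opposite sign. Pairs share parents and all share the 6 libraries, so they are not independent. The share of equal signs without any link between copy and parent was not determined. The median change over the pseudogenes was itself negative (-0.32). Among the 10 pairs named by their symbol, 7 had the same sign. In 17 pairs both genes were called, and these divided into 6 of the same and 11 of opposite sign. In 8 of the 11 the copy rose and the parent fell, and in 3 the copy fell and the parent rose. The 11 include 5 copies that rose and 3 that fell at least 8-fold, and Tdgf1-ps1. These copies entered the set only through the group where they were high, so the division by sign partly follows from the choice by mean count.

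The largest changes of copies did not come with large changes of parents. Over all tested genes the median was -0.02, with 12.6% called lower and 17.1% called higher. The parents of the 45 other pairs described below had a median of -0.29, so negative changes were common among parents. All 8 parents of copies that rose at least 8-fold had a negative fitted change, and 5 of them were called lower. Of the 6 parents of copies that fell at least 8-fold, 4 had a positive fitted change, of which 3 were called, and Eif3m was called lower. None of these 14 parents changed by more than 1.19 on the log2 scale in either direction. Setting aside these 14 by their own change favours small gaps between copy and parent, so what follows describes the remaining pairs and is no comparison with the 14. Among the 45 remaining pairs with at least 95% identity and at least 50% of the copy aligned, 35 had the same sign, 42 differed by at most 0.5 on the log2 scale, and the median difference was 0.16 in size. The widest gap among the 45 was that of Tdgf1-ps1. Across these 45 pairs, some of which share a parent and all of which share the libraries, the changes of copy and parent correlated at -0.09 (Pearson's r) and 0.56 (Spearman's rho), which differ in sign. The median log2 fold change was -0.29 for these copies and -0.29 for their parents. Distinctness differed widely among these pairs, and its part in these values was not tested.

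**Figure D4:**
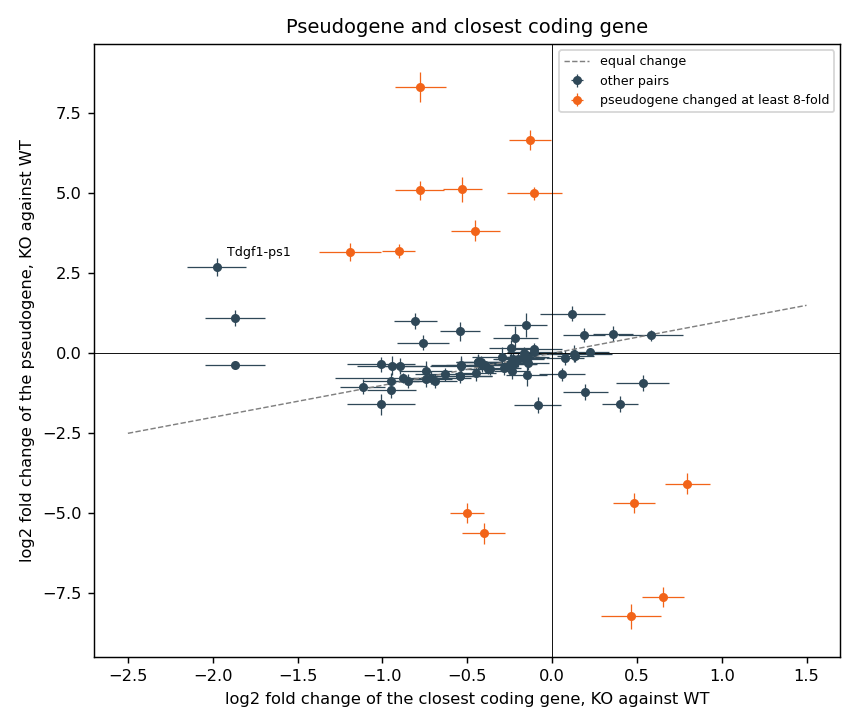
Log2 fold change in KO against WT of the closest coding gene (horizontal axis) and of the pseudogene (vertical axis) for the 79 tested pairs, with SE as bars. The 14 pairs in orange, whose pseudogene changed at least 8-fold, lie far from the dashed line of equal change, while their parents stay between -1.19 and 0.80.

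**Figure D5:**
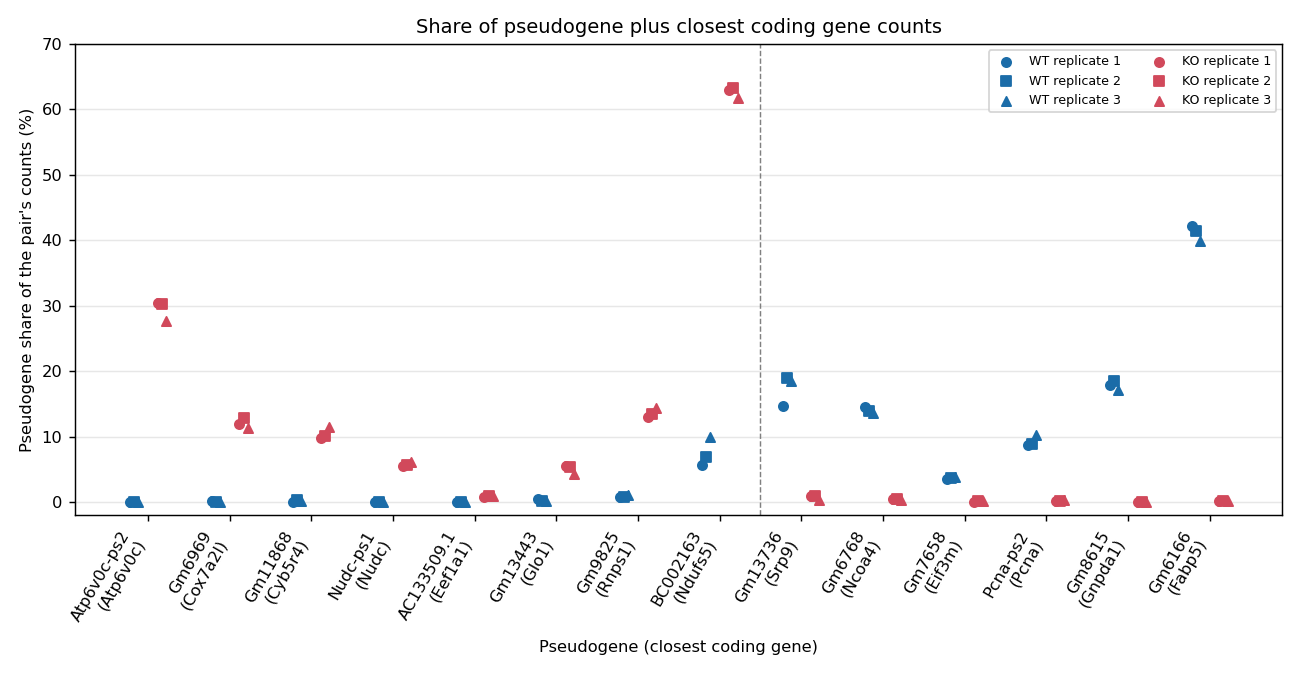
Share of the pair's counts (pseudogene plus closest coding gene, in %) that fell to the pseudogene in each library, for the 14 pseudogenes with an 8-fold or larger change. WT libraries are blue and KO libraries red, with a marker for each replicate. BC002163 rose from 5.63 to 10.0% in WT to 61.7 to 63.2% in KO, and Gm6166 went from 39.9 to 42.2% to at most 0.18%.

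Families of parents were counted next, from lists of gene symbols. Of the 7 copies of translation factor genes, AC133509.1 rose and Gm7658 and Gm9892 fell. Gm9892, a copy of the initiation factor gene Eif2s2, had a log2 fold change of -1.16, and that of Eif2s2 was -0.95. It lies on chromosome 8, where the median was -0.44. Of the 3 copies of respiratory chain genes, Gm6969 and BC002163 rose, and Gm15920, a copy of Ndufa12, did not pass the test (log2 fold change -0.08, adjusted p = 0.77). Of the 2 copies of pluripotency genes, Tdgf1-ps1 rose. None of the 7 copies of RNA binding and splicing genes, the 6 of chromatin genes, the 4 of chaperone genes, the 2 of tubulin genes or the 2 of glycolysis genes on these lists passed the test, although Gm8276, a copy of the poly(A) binding protein gene Pabpc1, did with the replicate block (log2 fold change -0.82, adjusted p = 0.0133, or 0.00311 with the block). The lists go by symbol and do not hold every gene of a function: the called copies Gm9825 of Rnps1, an RNA binding protein, and Nudc-ps1 of Nudc, a cochaperone, were on none of them. Pcna-ps2 was the only copy of a replication gene. Of the 55 copies outside these families, 10 rose and 14 fell.

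Among the 75 pseudogenes that changed less than 8-fold, 6 rose and 11 fell. Of the 14 of these with a tested parent, 9 had the sign of the parent and 5 the opposite sign. The lowest were Gm10060 and Gm10769. Gm10060 (chr8:19784746-19784856), the shortest of the set at 111 bases and closest to Nsfl1c, had 112, 131 and 86 counts in WT cells and 39, 55 and 33 in KO cells (log2 fold change -1.63, SE 0.25, adjusted p = 0.000623). Nsfl1c, which encodes a cofactor of the p97 ATPase, had a log2 fold change of -0.09 and did not pass the test (adjusted p = 0.64). Gm10769 had 118, 144 and 94 counts in WT cells and 22, 63 and 57 in KO cells (log2 fold change -1.59, SE 0.32, adjusted p = 0.00278, or 0.0133 without WT replicate 1), and its closest gene, 2410141K09Rik, fell by 1.01 on the log2 scale (SE 0.20, adjusted p = 0.00245). The closest gene of 8 pseudogenes was a zinc finger gene with a Zfp symbol. With the replicate block 11 further pseudogenes were called. Besides Zfp42-ps1, 2210409E12Rik, Ptges3-ps, Impdh2-ps and Gm8276, these were BC022960, higher in KO, and Gm3333, Gm10167, Gm3325, Gm10093 and Gm48691, lower in KO, with adjusted p between 0.0102 and 0.0721 without and between 0.000453 and 0.00633 with the block.

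Of the pseudogenes with a parent in their symbol, 6 were not called. Ptges3-ps and Tpt1-ps3 have no distinct window, so within their exons their reads cannot be told from those of Ptges3 and Tpt1 by sequence. Ptges3-ps, a copy of a cochaperone gene, had 290, 361 and 329 counts in WT cells and 261, 303 and 268 in KO cells (log2 fold change -0.49, SE 0.14, adjusted p = 0.0165, or 0.00844 with the replicate block), and Ptges3 had -0.38 (SE 0.10, adjusted p = 0.0134, or 0.00331 with the block). Impdh2-ps, on chromosome 8, is a copy of the gene of a rate-limiting enzyme of guanine nucleotide synthesis. It had 92, 115 and 101 counts in WT cells and 67, 72 and 78 in KO cells, without overlap (log2 fold change -0.76, SE 0.21, adjusted p = 0.0152, or 0.00696 with the block). Impdh2 fell by 0.71 on the log2 scale (SE 0.11, adjusted p = 0.000461). Eif3s6-ps2 had a log2 fold change of -0.45 and its parent Eif3e one of -0.29, and neither passed the test (adjusted p = 0.126 and 0.0452). Tpt1-ps3 and Tpt1 had -0.27 and -0.42, and Gpx4-ps2 and Gpx4 had -0.32 and -0.23, also without passing it (adjusted p between 0.0193 and 0.266; for Tpt1 0.00225 with the block).

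The most abundant pseudogenes showed small changes, apart from AC133509.1. 2810025M15Rik (chr1:157412352-157420236), annotated as transcribed, had the most counts, 982, 1198 and 1032 in WT and 1184, 1204 and 1308 in KO, and no closest coding gene was found for it. Its scaled levels, 46.9 ± 1.65 CPM over the WT libraries against 45.4 ± 4.13 CPM over the KO libraries (SD, n = 3), did not pass the test (log2 fold change -0.05, SE 0.11, adjusted p = 0.735, with a positive sign when scaled by library size only or without KO replicate 2). Gm4204, a copy of the histone chaperone gene Nap1l1, stood at 22.2 ± 2.10 CPM over the WT libraries and 23.03 ± 1.93 CPM over the KO libraries and did not pass the test (log2 fold change 0.05, SE 0.13, adjusted p = 0.759, negative without WT replicate 3 or KO replicate 1). Gm7964, a copy of Hnrnpk, which encodes an RNA binding protein, stood at 21.7 ± 1.27 and 19.5 ± 1.97 CPM, with overlapping libraries (adjusted p = 0.355). Gm10704, a copy of Rtraf, and AC098880.2, closest to Gm13212, had log2 fold changes of -0.37 and -0.37 (adjusted p = 0.0473 and 0.0306).

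The m6A sites of the study were predicted by the classifier m6Aboost from miCLIP2, in which an m6A antibody is crosslinked to RNA and the modified base is read from where reverse transcription stops. The list for WT mESCs, made with uniquely mapped reads only, held 9 sites in the exons of 5 of the 89 pseudogenes (5.62%), while 56.5% of the 11470 protein-coding genes that reached 50 counts on average held a site. These 5 were 2810025M15Rik with 4 sites, Gm10557 with 2, and Gm18860, Gm9855 and 2210409E12Rik with 1 each. Only uniquely mapped reads entered the list, and 37 of the 89 pseudogenes had distinct windows over less than 50% of their length. These windows have the length of the RNA-seq reads, not of the miCLIP2 reads. With 50-base windows the median distinct share was 42.8% in place of 69.0%. The paper also states that miCLIP2 signal depends strongly on transcript abundance. The median count per pseudogene was 105 over the WT and KO libraries together, but the list is of WT cells only. For 15 of the 89 the mean count was under 50 in WT and not in KO, and some had almost no WT counts. The coding genes were not matched to the pseudogenes by level. The part of unique mapping and of abundance in the difference was not tested. A list from 1 µg of mouse heart RNA held 10 sites in 6 of the pseudogenes, of which Gm10557 and Gm18860 were also in the mESC list, with the same positions.

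The following 21-base stretches around mESC sites show the kind of sequence that was listed, with the predicted modified A at the centre of the 5 capitals.
Gm9855 (chr10:42055258-42055278, - strand): tcacgactGGACAgcaggtgc
2210409E12Rik (chr11:88972814-88972834, + strand): tgagatgaAAACTctgaggga
2810025M15Rik (chr1:157420015-157420035, + strand): ataatgggGGACActgtcatc
The site of Gm9855, a copy of the DNA glycosylase gene Tdg, was not listed in Tdg, although the 21 bases are the same there. 2210409E12Rik is closest to Elobl at 90.1% identity. Its site also lies in an exon of Coil, the coilin gene on the same strand, so it cannot be assigned to the pseudogene. 2210409E12Rik had 267, 314 and 254 counts in WT cells and 363, 640 and 483 in KO cells (log2 fold change 0.56, SE 0.17, adjusted p = 0.0186, or 0.00471 with the block), and Coil rose by 0.77 (SE 0.10, adjusted p = 0.000279).

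The parents carried more sites than the copies, without a match of their levels. The 75 distinct closest genes held 67 mESC sites in 31 of them. Through the alignments, 26 pairings of a parent site with a position in a copy were found, in 17 pseudogenes. In 24 of the 26 the copy had the same 5 bases around the A, and in 1, that of Gm18860 and Cnot8, the copy had a listed site itself. In the heart list, 9 of 10 such positions kept the 5 bases and none was listed in the copy. Nudc-ps1 kept the 5 bases of the site in Nudc, but it had few counts in WT cells, the source of the mESC list. Gm12346 and Gm5844, both copies of the chaperone gene Hsp90aa1, kept those of the same 2 sites. A site that was not listed says nothing about the modification where reads fit copy and parent equally well, since such reads did not enter the lists.

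Gm18860 is a copy of Cnot8, the gene of a deadenylase of the CCR4-NOT complex, and the mESC list holds both the site in the copy and the aligned site in Cnot8. The 21 bases around them are the same in both. Gm18860 had 60, 69 and 41 counts in WT cells and 101, 104 and 103 in KO cells, which do not overlap, but its log2 fold change of 0.61 (SE 0.24) did not pass the test (adjusted p = 0.0555), nor did that of Cnot8 (0.36, SE 0.12, adjusted p = 0.0299, or 0.00506 with the block). Of the 5 pseudogenes with mESC sites, Gm10557 was called. It had 396, 503 and 317 counts in WT cells and 269, 280 and 292 in KO cells (log2 fold change -0.77, SE 0.15, adjusted p = 0.00242, or 0.0114 to 0.0125 when scaled by library size only or without WT replicate 1, KO replicate 1 or KO replicate 2).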

How the data were processed

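RNA-seq of WT and Mettl3 KO mESCs (3 libraries each) and the m6A site lists of WT mESCs and of mouse heart (1 µg) were used. For the deposited gene counts, the authors mapped single-end reads of 84 bases to GRCm38.p6 with STAR 2.6.1b with a single location kept for multi-mapping reads, and counted them with HTSeq 0.12.4 (reverse strand), which gives raw whole-number counts. The score column of the deposited site lists was computed by the authors with m6Aboost for mESCs, and its scale is not stated for heart. No score is printed here. Rows without a gene entered neither library sizes nor tests, and their sizes as percent of gene counts plus these rows were: reads in no feature (17.6 to 22.6%), reads not aligned uniquely (13.9 to 15.2%), reads not aligned (3.76 to 4.67%) and ambiguous reads (0.813 to 0.988%).

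Biotypes, exons and transcripts were taken from GENCODE M21 (the authors used a later release), with genes matched by identifier. Of the 56196 genes, 55240 matched, and 9 genes above 50 counts had no entry. All 89 pseudogenes matched with their version. KO and WT were compared by edgeR 4.0.16 under R 4.3.3 (glmQLFit and glmQLFTest after filterByExpr and TMM scaling, without covariates; the script was tested on simulated data), with p adjusted by Benjamini-Hochberg over 15731 genes and called at 0.01. All CPM values are scaled by TMM. For a pseudogene whose low group never exceeded 3 counts per library, the text gives a ratio of summed counts with an exact 95% interval. Shares of counts were compared by exact permutation tests.

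The parent was the protein-coding transcript with the best blastn 2.17.0 score on the same strand (identity at least 80%, at least 100 bases, overlapping genes left out). The closest gene is no secure parent for Magef1 (Olfr912 over a small part), and Gm11478 is closest to Gm45713, with Rpl13a second. For 10 pseudogenes the symbol gives the parent. Windows of 84 bases were searched in the 66 primary sequences of the assembly and in spliced transcripts.

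Replicate numbers were shared by the groups. The deviations from the group means of same-numbered samples correlated at 0.12, 0.46 and 0.30, and those of differently numbered samples at -0.34 to 0.11. The numbers were taken to pair the samples, although for replicate 1 the values hardly separate (0.11 for WT replicate 3 with KO replicate 1). The main calls do not use this pairing. Values with the number as a block are given for the pseudogenes, and for the parents whose p is printed, where a call changed. Replicates of a group differed by more than sampling noise. Named genes are pseudogenes with a parent in the symbol, the 8 highest and 8 lowest among those called without overlap, the 6 most abundant, those with mESC sites, the 3 on each side of 50 counts, their parents, and Mettl3. Snrpert, Gm13456, Gm6548, Gm15920, Gm9892, Gm12346, Gm5844, BC022960, Gm3333, Gm10167, Gm3325, Gm8276, Gm10093, Gm48691 and the overlapping genes were named after their values were seen. The pseudogenes, lists and tests were chosen with earlier results of these data known. Alternatives were DESeq2 1.42.0, other scalings and filters, an adjusted p of 0.05, other count limits, the block, leaving out each library, 50-base windows and the heart list.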

Additional observations from a re-analysis of the deposited data

How the results depend on the processing

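Of 431 alternative values for the 34 named pseudogenes, 407 kept their direction and their side of the threshold, 15 passed it newly, 5 no longer passed it and 4 turned sign. The 4 were 2810025M15Rik at 0.0535 with scaling by library size only and 0.0319 without KO replicate 2 (-0.0877 to 0.0319 without each replicate), and Gm4204 at -0.0212 without WT replicate 3 and -0.0075 without KO replicate 1 (-0.0212 to 0.116 without each replicate). Against 31 called pseudogenes (14 higher, 17 lower), at least 10 counts in every library left 17 (9 and 8) of 78 tested, a mean of at least 100 counts 15 (7 and 8) of 46, and a mean of at least 50 counts in each group, chosen after seeing the data, 9 (1 and 8) of 61. Scaling by library size only gave 10 lower, and an adjusted p of 0.05 gave 28 lower. A mean of at least 25 counts gave 151 pseudogenes. Leaving out each replicate in turn gave 19 to 32 called, 9 to 17 lower and 10 to 15 higher. The median log2 fold change, -0.32, was -0.21 with scaling by library size only, -0.28 with no filter, with at least 10 counts in every library, with a mean of at least 25 counts or with processed pseudogenes alone, -0.27 with at least 100 counts, -0.29 with the replicate block, and -0.34 to -0.23 without each replicate. With the replicate block 42 were called (17 higher, 25 lower), among them all 31 and 11 more, and no direction turned. The difference in share of counts was -0.00478 percentage points without AC133509.1 (added after seeing the data) and -9e-05 to 0.00467 without each replicate. With 50-base windows the median distinct share was 42.8% in place of 69.0%. The share of pairs with the same sign stayed between 58.2 and 70%. The causes were not tested. Depth limits the low groups: Atp6v0c-ps2, Gm6166 and Gm8615 had 6 or fewer summed counts there, so their ratios have wide intervals.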
